A study of Mus musculus with 12 samples.

Results

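The expression of 10 genes of the fibroblast growth factor (FGF) pathway was examined in primary mouse OLs in which Egr2 was targeted. The genes were chosen by name: the receptors Fgfr1, Fgfr2, Fgfr3 and Fgfrl1, the ligands Fgf1 and Fgf2, the feedback inhibitors Spry1, Spry2 and Spry4, and the transcription factor Etv5. These 10 were found among 56860 named genes in the count table, and all 10 passed the filter on low counts with 16600 genes in all. The study compared siEgr2, a small interfering RNA against Egr2, with a scrambled control, siNC, to ask which transcripts depend on this myelination-related transcription factor. Each group had 6 libraries, harvested after 48 h.

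Both groups consisted of C57BL/6J cells grown by the same protocol. Cells that bound beads against O4, a surface antigen of immature OLs, were taken from newborn cortex, while the labels give medial prefrontal cortex as the tissue. The cells were grown with PDGF-AA and then differentiated with insulin, triiodothyronine and ciliary neurotrophic factor. No FGF is listed among these additions. The methods call the reagent an siRNA in one place and an interference plasmid in another, and neither they nor the labels say whether libraries of a group came from separate cultures or animals. The p-values therefore measure only the spread between these libraries, which may be technical.

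FGF ligands bind receptor tyrosine kinases on the cell surface together with heparan sulphate chains, and the receptors signal through the Ras-ERK cascade. ERK activity raises transcription of Sprouty genes, whose proteins dampen the cascade, and of ETS factors such as Etv5, so both are widely used as readouts of pathway activity. In the OL lineage, FGF signalling is known for promoting the proliferation of precursors and, through Fgfr1 and Fgfr2, the growth of myelin.

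Depth differed between the groups. Total counts ranged from 28682946 to 39383014 in the siNC libraries and from 8034251 to 16683677 in the siEgr2 libraries, and Rn18s-rs5, an 18S ribosomal RNA entry, took 0.142% to 1.05% of the counts in siNC against 10.5% to 16.5% in siEgr2. All 7 structural RNAs listed, which also include Rn7sk, Rn7s1, Rpph1, Rmrp and the mitochondrial ribosomal RNAs, were called higher in siEgr2, with log2 fold changes from 1.45 to 4.50, and together took 0.196% to 1.11% of the counts in siNC and 10.7% to 16.7% in siEgr2. Levels are given in CPM, counts relative to the size of each library, after scaling between libraries by the trimmed mean of M-values (TMM). The targeted gene, Egr2, measured 5.35 ± 1.27 CPM in siNC and 3.77 ± 1.01 CPM in siEgr2 (SD, n = 6 each), a log2 fold change of -0.51 (SE 0.21), and the edgeR adjusted p of 0.0981 did not pass the threshold. The Egr2 value was -0.70 (adjusted p = 0.0144) with scaling by library size only, which moved the median of all genes to -0.18, and -0.33 after every library was thinned to the smallest total. Markers of OLs were present in every library, and those of astrocytes were too, with Gfap, their intermediate filament, at 4777 ± 205 CPM in siNC. In these bulk cultures, fewer cells of a type and less RNA per cell cannot be told apart. Treatment, depth and the share of structural RNAs also differ together between the groups. Their parts in any difference given below cannot be told apart.

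Stretches of promoter are shown first, because Egr2 is a zinc finger factor that binds GC-rich sites and the positions of such letters near these genes can be read directly. The RefSeq promoter table for GRCm38.p6 held entries for 7 of the 10 genes, 9 promoters in all, each from 250 bases before to 50 bases after a transcription start. Fgfr1, Fgf1 and Spry4 had no entry, so their promoters were not searched. The letters GCGNGGGCG, the binding motif of the EGR family, were searched on both strands. They occurred in 3 of the 9 promoters, those of Fgf2, Fgfrl1 and 1 of 2 of Fgfr3, and in 5.55% of all 32851 promoters in the table. A match describes the sequence and is no evidence of binding. The matches are in capitals in the following stretches of 30 bases, which run on the plus strand at chr3:37348596-37348625, chr5:33721651-33721680 and chr5:108694002-108694031. Counted from the transcription start of each table entry they begin at -47, -63 and -217, and that of Fgfr3 reads on the opposite strand. The entry for Fgf2 starts at 37348653, whereas RefSeq's gene span starts at 37348477, so by the span the Fgf2 match lies inside the gene. The Fgfr2 promoter held no match, and the 100 bases before its start, on the minus strand at chr7:130266809-130266908, are shown because Fgfr2 was the receptor with the largest difference between the groups.
Fgf2: ggcgcgcgggGCGGGGGCGcacggggccgg
Fgfr3: gaccgcccggCGCCCCCGCctgaccacgcc
Fgfrl1: gagcccagggGCGGGGGCGcggcgaggcag
Fgfr2: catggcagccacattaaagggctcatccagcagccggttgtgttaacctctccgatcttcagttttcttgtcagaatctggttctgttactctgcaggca

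The letters TGAATGAA, bound by Capicua, the repressor that ERK inactivates at Etv and Sprouty genes, were found in 0 of the 9 promoters and in 1.3% of all promoters. With so low a share, 0 of 9 does not show that Capicua sites are absent. Only these exact letters were searched, and Spry4 had no entry. Among the 3 genes whose promoter held the EGR letters, Fgfrl1 passed the adjusted p described next, while Fgf2 and Fgfr3 did not.

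Across the 10 genes, 2 were lower in siEgr2 by the thresholds used for all genes (edgeR quasi-likelihood test, adjusted p under 0.05 with a log2 fold change beyond 0.5 in either direction): Fgf1 and Fgfr2. None was called higher by edgeR, DESeq2 or limma-voom, and 1 of the 10 was higher at an unadjusted p under 0.05. Over all 16600 genes, 7.72% were called by this rule, 2.63% higher and 5.08% lower. By adjusted p alone, 4 of the 10 were lower, namely Fgfr1, Fgfr2, Fgfrl1 and Fgf1, against 11.3% of all genes, and 1 was higher, Spry4, against 8.57%. The values of the groups did not overlap for 3 of the 10, Fgfr2, Fgf1 and Spry4, against 11.2% of all genes. The median log2 fold change of the 10 was -0.06, and that of all genes was 0.0046.

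**Figure D1:**
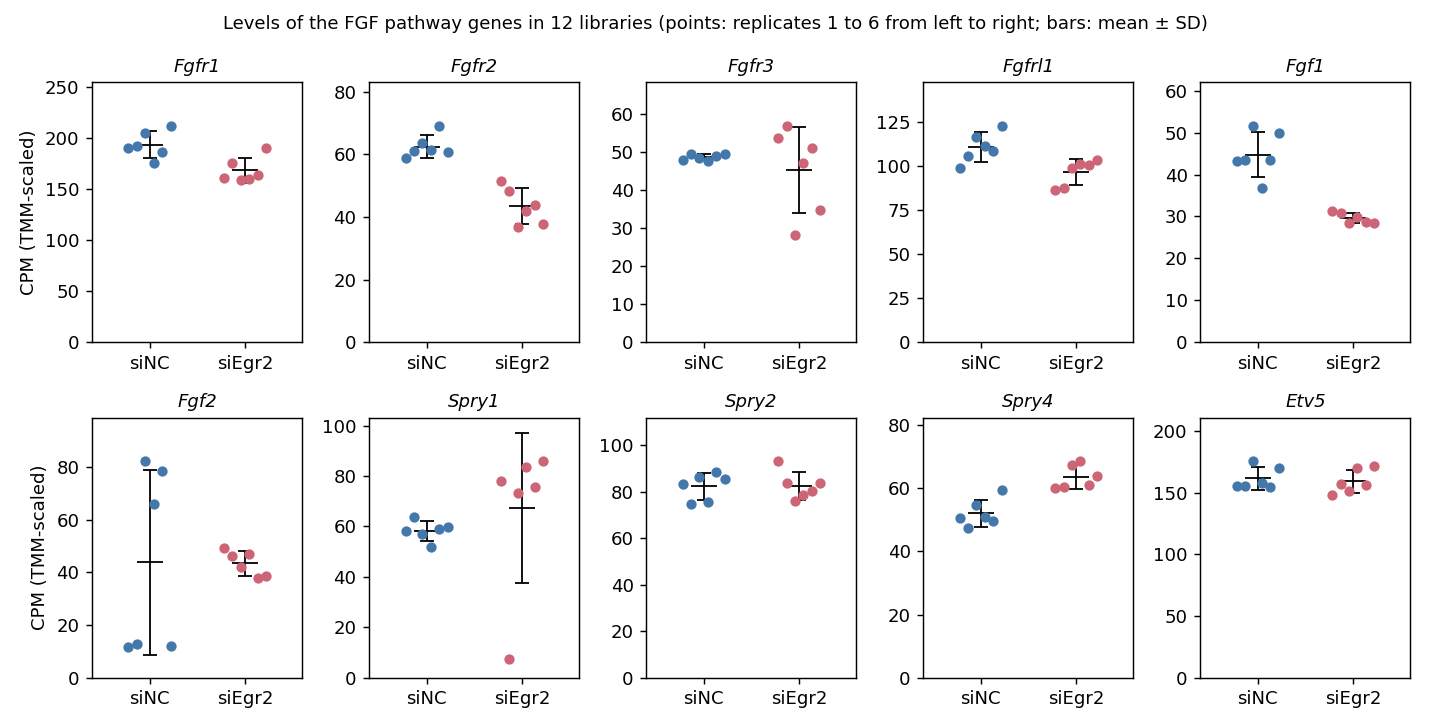
Level of each gene in CPM (TMM-scaled, vertical axes from 0) in the 6 siNC (blue) and 6 siEgr2 (red) libraries, with the mean and SD as black bars. The groups are apart for Fgfr2, Fgf1 and Spry4, the siNC libraries of Fgf2 split into 3 near 12 CPM and 3 above 66 CPM, and 1 siEgr2 library of Spry1 lies at 7.57 CPM.

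Fgfr1 was slightly lower in siEgr2. Its level in siNC was 176 CPM at the lowest, 191 at the median and 212 at the highest, and in siEgr2 159, 163 and 191 CPM. Only the siEgr2 libraries 2 and 6 reached into the range of the controls. The means of 194 ± 13.2 and 169 ± 12.5 CPM (SD, n = 6 each) differed by a log2 fold change of -0.20 (SE 0.055; edgeR adjusted p = 0.0148), which is under the fold threshold.

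Fgfr2 showed the largest difference of the receptors. In siNC it measured 58.7, 61.2, 63.5, 61.4, 69.2 and 60.8 CPM in libraries 1 to 6. In siEgr2 it measured 51.4, 48.4, 36.7, 41.9, 43.9 and 37.9 CPM. Every siEgr2 library lay below every siNC library. Its mean was 62.5 ± 3.62 CPM in siNC and 43.4 ± 5.76 CPM in siEgr2 (SD, n = 6 each), 30.6% lower, with a log2 fold change of -0.53 (SE 0.078; edgeR adjusted p = 0.000155). This lies close to the fold threshold: without siNC replicate 5, siEgr2 replicate 3 or siEgr2 replicate 6 it was -0.49, -0.48 and -0.49, and Fgfr2 then passed the adjusted p only. RefSeq places Fgfr2 at 130162451 to 130266808 on chromosome 7 of GRCm38.p6. GENCODE M21 extends the gene to 133123350 through 2 exons of 314 bases in all, so that its span overlaps 69 other genes, 36 of them on the same strand. Those 2 exons lie in Ctbp2, which had 1319 to 2050 counts in siNC and 381 to 789 in siEgr2. How reads of these overlapping genes were assigned is not given in the sources used here, so the Fgfr2 counts carry this uncertainty.

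Fgfr3, the receptor that in brain is known mainly from astrocytes and their precursors, did not pass the test and was widely spread in siEgr2. The siNC libraries 1 to 6 were at 48.0, 49.5, 48.7, 47.8, 49.0 and 49.5 CPM. The siEgr2 libraries 1 to 6 were at 53.8, 57.1, 28.2, 47.1, 51.2 and 34.8 CPM. Replicates 3 and 6 of siEgr2 lay far below the controls, and replicates 1, 2 and 5 above them. The coefficient of variation (CV) was 1.49% in siNC and 25.1% in siEgr2, where the median CV of the 10751 genes with a mean count of at least 200 was 7.53% and 9.69%. The log2 fold change of -0.11 (SE 0.14; edgeR adjusted p = 0.663) did not pass, with a 95% interval from -0.38 to 0.17. The same 2 libraries, siEgr2 replicates 3 and 6, held the lowest Fgfr2 levels. G630022F23Rik, which is annotated on the other strand over the start of Fgfr3, had 16 to 57 counts in siNC and 3 to 20 in siEgr2.

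Fgfrl1, a receptor that lacks the kinase domain, ranged from 98.6 to 123 CPM around a median of 110 CPM in siNC. In siEgr2 it ranged from 86.6 to 103 CPM around a median of 99.9 CPM. The groups overlapped, since siNC replicate 1 lay below 4 of the siEgr2 libraries. The means were 111 ± 8.42 and 96.3 ± 7.38 CPM (SD, n = 6 each), and the log2 fold change was -0.20 (SE 0.061; edgeR adjusted p = 0.0278). The adjusted p stayed under 0.05 in 8 of 12 fits that left out 1 library, and was 0.0635 without siNC replicate 3, 0.0703 without siNC replicate 6, 0.0574 without siEgr2 replicate 1 and 0.0566 without siEgr2 replicate 2.

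Fgfr4, the remaining kinase receptor, was too low to test, with 1 to 32 counts in siNC and 0 to 6 in siEgr2. The klotho co-receptors Kl and Klb were also below the filter.

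To compare levels between genes, counts were divided by the length of the merged exons in GENCODE M21, giving CPM per kilobase. On this scale Fgfrl1 led in siNC at 39.8 ± 3.03, followed by Spry2 at 39.5 ± 2.72 and Etv5 at 39.4 ± 2.22 (SD, n = 6 each), and these 3 did not differ beyond their spread. Spry1 at 20.05 ± 1.36 and Fgfr1 at 19.6 ± 1.33 came next and did not differ beyond their spread either. Spry4 was at 10.96 ± 0.900 and Fgf1 at 8.19 ± 0.981 per kilobase. Fgfr3 at 6.81 ± 0.101, Fgf2 at 6.47 ± 5.19 and Fgfr2 at 6.05 ± 0.351 closed the order, with the spread of Fgf2 covering both neighbours. In siEgr2, Spry2 at 39.6 ± 2.88, Etv5 at 38.8 ± 2.35 and Fgfrl1 at 34.6 ± 2.65 remained the highest, and Fgfr2 at 4.20 ± 0.558 was the lowest by this length.

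The order of the levels depended on the length used, an alternative added after the data had been seen. With the longest annotated transcript, Fgfr1 in siNC was at 38.5 per kilobase in place of 19.6, Fgfr2 at 14.1 in place of 6.05 and Fgfr3 at 11.5 in place of 6.81, so that Fgfr2 then lay above Fgfr3. In siEgr2, Fgfr2 was then at 9.79 per kilobase, above Fgf1 at 7.44 and Fgf2 at 7.28, and no longer the lowest. Which transcripts of these genes the cells used was not measured.

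The balance of the receptors was also compared within each library as a log2 ratio of counts, which needs no scaling between libraries. Of the 10 ratios among the receptors, ligands and Sproutys, 3 passed an exact two-sided permutation test after Benjamini-Hochberg adjustment over the 10, and in none were the groups free of overlap. The ratio of Fgfr2 to Fgfr1 was -1.63 ± 0.13 in siNC and -1.97 ± 0.23 in siEgr2 (log2, SD, n = 6 each; exact permutation p = 0.00866, adjusted p = 0.0361), a difference of -0.33. The ratio of Fgfr3 to Fgfr2 was -0.36 ± 0.078 and 0.03 ± 0.24 (exact permutation p = 0.0108, adjusted p = 0.0361), and only siEgr2 replicate 3, at -0.38, fell within the siNC range. Fgfrl1 to Fgfr1 was -0.81 ± 0.097 and -0.81 ± 0.14 (exact permutation p = 0.981, adjusted p = 0.998).

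**Figure D2:**
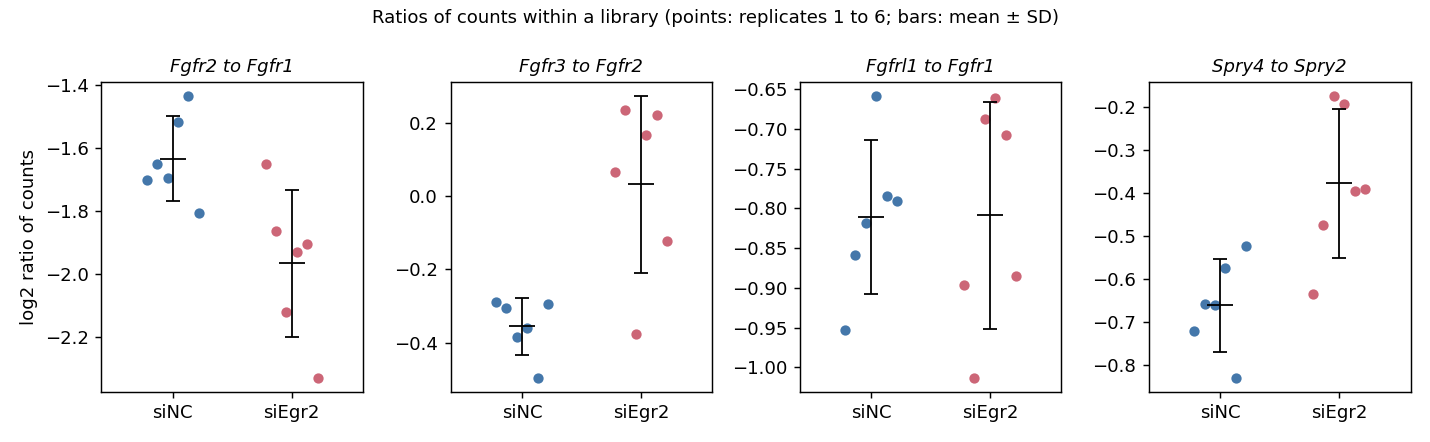
Log2 ratio of the counts of 2 genes within each library (vertical axes, log scale, ranges differ between panels) for 6 siNC (blue) and 6 siEgr2 (red) libraries, with mean and SD. Fgfr2 to Fgfr1 is lower and Fgfr3 to Fgfr2 and Spry4 to Spry2 are higher in siEgr2 with some overlap, and Fgfrl1 to Fgfr1 is at -0.81 in both groups.

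With fewer libraries these ratios mostly missed the threshold while their differences kept their sign. The adjusted p of Fgfr2 to Fgfr1 stayed under 0.05 in 3 of 12 sets that left out 1 library, those without siNC replicate 6, siEgr2 replicate 1 or siEgr2 replicate 2, and elsewhere reached 0.0722, with differences from -0.40 to -0.26. That of Fgfr3 to Fgfr2 stayed under it without siEgr2 replicate 1, 2 or 3, with differences from 0.35 to 0.47. With every library thinned to the smallest total, both had an adjusted p of 0.0794, at -0.27 and 0.32.

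The genes whose profile over the 12 libraries lay nearest to each receptor were found by the root mean square difference of log2 CPM less its siNC mean, among 9065 genes of sufficient level. For Fgfr1 these were Sqstm1 at 0.052, Samd4b at 0.064 and Cotl1 at 0.066. For Fgfr2 they were Lxn at 0.081, Suox at 0.088 and Pgm1 at 0.096, and for Fgfr3 Isca2 at 0.11, Rnf146 at 0.15 and Nipsnap2 at 0.16. Treatment and depth differ together between the groups, so these distances are a description.

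Of the ligands, Fgf1, which binds all FGF receptors and is made without a signal peptide, fell. In siNC it measured 43.3, 43.5, 51.7, 36.7, 43.5 and 49.8 CPM in libraries 1 to 6. In siEgr2 it measured 31.4, 30.8, 28.5, 29.98, 28.7 and 28.5 CPM. Every siEgr2 library lay below every siNC library, and the siEgr2 values were the more uniform of the groups, with a CV of 4.35% against 11.98%. Its mean was 44.7 ± 5.36 CPM in siNC and 29.6 ± 1.29 CPM in siEgr2 (SD, n = 6 each), 33.7% lower, with a log2 fold change of -0.59 (SE 0.076; edgeR adjusted p = 3.89e-05). It was called in each of 12 fits without 1 library, at -0.64 to -0.55. Fgf1 lies on the opposite strand within the span of Arhgap26, which had 175 to 393 counts in siNC and 34 to 119 in siEgr2. Whether reads were assigned by strand is not given in the sources used here, so counts of overlapping genes are uncertain.

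Fgf2, the ligand used in culture to keep precursors dividing, split the control libraries. Replicates 1, 2 and 6 of siNC were at 11.6, 12.7 and 12.04 CPM, and replicates 3, 4 and 5 at 82.4, 66.2 and 78.4 CPM. The siEgr2 libraries 1 to 6 were at 49.2, 46.2, 42.2, 47.0, 37.9 and 38.5 CPM. All 6 siEgr2 values thus fell in the gap between the low and the high controls. In counts, the siNC libraries 1 to 6 held 400, 417, 2556, 2261, 2397 and 503.

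The means of Fgf2 were 43.9 ± 35.2 CPM in siNC and 43.5 ± 4.70 CPM in siEgr2 (SD, n = 6 each), and the log2 fold change was -0.01 (SE 0.56; edgeR adjusted p = 0.995). Its interval, from -1.11 to 1.09, covers changes of either sign. The sign turned with the method, to 0.59 with limma-voom (adjusted p = 0.589). The CV of 80.2% in siNC was exceeded by 18 of the 10751 genes with a mean count of at least 200. Nudt6, whose 3' part overlaps Fgf2 on the other strand, did not follow the split, with 67, 111, 70, 114, 119 and 123 counts in siNC libraries 1 to 6. The other genes annotated over Fgf2, Gm43439, Fgf2os and Gm42923, had at most 3 counts in any library.

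The ratio of Fgf2 to Fgf1 followed the split, at -1.89, -1.77 and -2.05 (log2) in siNC replicates 1, 2 and 6, and 0.67, 0.85 and 0.85 in replicates 3, 4 and 5. In siEgr2 it lay between 0.40 and 0.65. The exact permutation p of the difference was 0.182 (adjusted p = 0.364).

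Other secreted FGFs were scarce. Of 16 listed, 4 passed the filter, Fgf7, Fgf17, Fgf18 and Fgf22, and 5 had no count in any library. None of the 4 passed the edgeR test, with 0 of them at an unadjusted p under 0.05 and 0 called by DESeq2 or limma-voom. The one with the highest CPM, Fgf7, known as a ligand of an epithelial splice form of Fgfr2, was at 4.53 ± 1.33 CPM in siNC and 4.39 ± 0.772 CPM in siEgr2 (SD, n = 6 each). The intracellular FGF homologous factors, which bind sodium channels and not the FGF receptors, were all 4 tested and gave the same counts of 0, with Fgf11 the highest at 15.6 ± 0.961 CPM in siNC and 16.6 ± 1.18 CPM in siEgr2.

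The Sprouty genes, feedback inhibitors that act between the receptor and ERK, included 1 that passed the adjusted p, Spry4, which rose. It measured 50.5, 47.5, 54.6, 50.8, 49.7 and 59.5 CPM in siNC libraries 1 to 6. In siEgr2 it measured 60.0, 60.4, 67.3, 68.6, 61.1 and 63.8 CPM. The lowest siEgr2 library lay just above the highest control. The mean went from 52.1 ± 4.28 to 63.6 ± 3.71 CPM (SD, n = 6 each), a log2 fold change of 0.29 (SE 0.061; edgeR adjusted p = 0.00296), which is under the fold threshold. With scaling by library size only, the log2 fold change of Spry4 was 0.10 and its adjusted p 0.207.

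Spry2 did not pass the test. Its siNC values ran from 74.9 to 88.4 CPM around a median of 84.4 CPM. Its siEgr2 values ran from 76.0 to 93.2 CPM around a median of 82.1 CPM. The ranges lay over each other nearly in full. The log2 fold change was 0.0058 (SE 0.058; edgeR adjusted p = 0.962), with an interval from -0.11 to 0.12. With scaling by library size only it was -0.18 (adjusted p = 0.0242), the same as the shift of the median of all genes.

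Spry1 was set apart by a single library. In siNC, libraries 1 to 6 were at 58.2, 63.8, 57.0, 51.7, 59.1 and 59.8 CPM. In siEgr2, replicates 1 and 3 to 6 were at 78.2, 73.4, 83.4, 75.7 and 86.0 CPM, all above every control. Replicate 2 was at 7.57 CPM, from 93 counts. With all 6 siEgr2 libraries the means were 58.3 ± 3.95 and 67.4 ± 29.7 CPM (SD, n = 6 each) and the log2 fold change was 0.21 (SE 0.41; edgeR adjusted p = 0.778). Without siEgr2 replicate 2 it was 0.44 and the adjusted p was 0.000121, still under the fold threshold.

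The same library was not low in the other Sproutys, at 84.0 CPM for Spry2 and 60.4 CPM for Spry4. It also held 1919 haemoglobin counts, where siEgr2 replicate 6 held 2 and the other libraries 0. The part of blood RNA in the Spry1 value was not tested. Gm42922, annotated on the other strand over the start of Spry1, had 15 counts in that library and 8 to 48 over all libraries. Spry1 starts at position 37639947 of chromosome 3, where Fgf2 ends at 37410106 by RefSeq. The split of Fgf2 was among siNC libraries, and the low Spry1 value was in siEgr2 replicate 2. Whether they are linked was not tested.

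Within libraries, Spry4 rose against Spry2, from a log2 ratio of -0.66 ± 0.11 in siNC to -0.38 ± 0.17 in siEgr2 (SD, n = 6 each; exact permutation p = 0.00866, adjusted p = 0.0361). Its adjusted p stayed under 0.05 in 3 of 12 sets that left out 1 library, those without siNC replicate 6, siEgr2 replicate 1 or siEgr2 replicate 2, with differences from 0.24 to 0.33. The ratio of Spry2 to Spry1 was 0.50 ± 0.13 in siNC and 0.62 ± 1.40 in siEgr2, and did not pass (exact permutation p = 0.998). Without siEgr2 replicate 2 its difference turned to -0.45 (adjusted p = 0.0361). Spry4 to Spry1 differed by 0.41 and did not pass, and without that library differed by -0.14 (adjusted p = 0.224).

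Etv5, an ETS factor induced by FGF signalling, did not pass the test either. In siNC it measured 154 CPM at the lowest, 157 at the median and 176 at the highest. In siEgr2 it measured 148, 157 and 171 CPM. The medians were the same to 3 digits and the ranges overlapped. The log2 fold change was -0.02 (SE 0.048; edgeR adjusted p = 0.802), with an interval from -0.12 to 0.07. With scaling by library size only it was -0.21 (adjusted p = 0.00223), near the shift of all genes under that scaling.

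**Figure D3:**
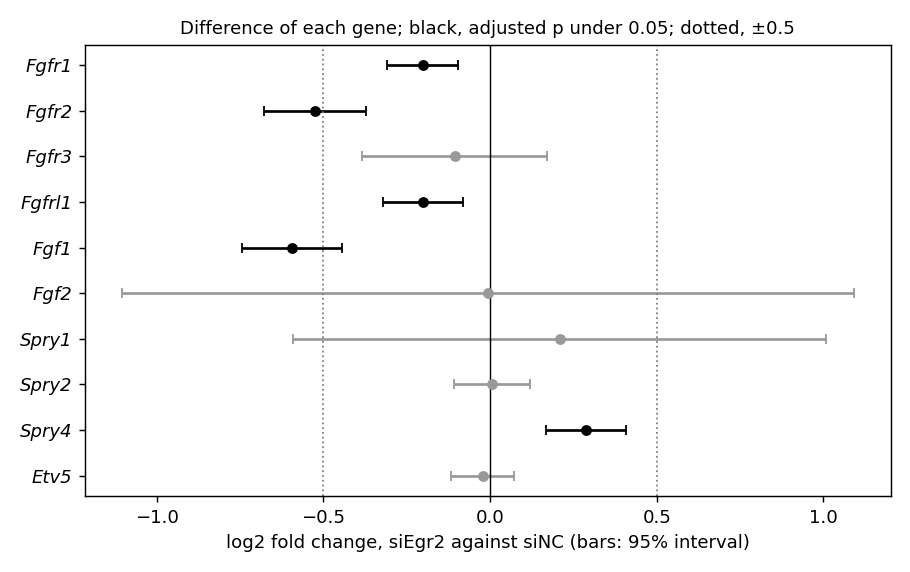
Log2 fold change of siEgr2 against siNC for each gene (horizontal axis), with its 95% interval as a bar, black where the edgeR adjusted p is under 0.05. Fgf1 at -0.59 and Fgfr2 at -0.53 pass the dotted line at -0.5, Spry4 at 0.29 is the sole black point above 0, and Fgf2 and Spry1 have the widest bars.

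The other genes of the pathway were described by lists. Among co-receptors and ligand carriers, 11 of 14 were tested and 3 were called, all lower, against 7.72% of all genes called. A further 3, Flrt1, Flrt3 and Sdc3, were higher by adjusted p alone, against 8.57% of all genes. The median log2 fold change of the 11 was 0.09. Sdc4, a heparan sulphate proteoglycan that presents FGF to its receptors, fell from 253 ± 14.8 to 134 ± 15.3 CPM (SD, n = 6 each; log2 fold change -0.92, SE 0.066, edgeR adjusted p = 1.08e-07). Gpc4, a lipid-anchored proteoglycan, fell from 90.2 ± 8.15 to 52.4 ± 7.92 CPM (log2 fold change -0.78, edgeR adjusted p = 1.88e-05). Sdc2, another syndecan, fell from 116 ± 6.30 to 78.9 ± 7.03 CPM (log2 fold change -0.55, edgeR adjusted p = 5.35e-06). Flrt3, a transmembrane protein that binds Fgfr1, rose from 23.7 ± 1.47 to 32.7 ± 2.05 CPM (log2 fold change 0.46, edgeR adjusted p = 0.000106). In these 4 genes the groups did not overlap.

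Of 11 enzymes of heparan sulphate synthesis and editing, 1 was called, lower, against 7.72% of all genes called. Their median log2 fold change was -0.03. The called gene was Sulf1, an extracellular sulphatase that removes sulphate needed for FGF binding, which fell from 190 ± 8.08 to 129 ± 6.17 CPM (SD, n = 6 each; log2 fold change -0.56, edgeR adjusted p = 1.90e-07). By adjusted p alone 4 of the 11 were lower and 1 higher, against 11.3% and 8.57% of all genes.

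Downstream, the receptor adaptors and the kinase cascade held no gene called by edgeR, DESeq2 or limma-voom. Of 12 adaptors, 3 were lower at an unadjusted p under 0.05 and 2 of these by adjusted p, against 11.3% of all genes by adjusted p. No share of all genes is given for the unadjusted p. The median log2 fold change of the adaptors was -0.07. Ptpn11, the phosphatase that links the receptors to Ras, was the highest of them and measured 448 ± 7.10 CPM in siNC and 417 ± 16.9 CPM in siEgr2 (SD, n = 6 each; log2 fold change -0.10, edgeR adjusted p = 0.0297). Of 11 genes of the Ras-ERK cascade, 1 was higher and 2 lower both by unadjusted and by adjusted p, with a median of -0.02. By adjusted p, 8.57% of all genes were higher and 11.3% lower.

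Of 10 further feedback inhibitors, 9 were tested and 1 was called, lower, against 7.72% of all genes called. Their median log2 fold change was -0.15. The called gene was Dusp5, a nuclear ERK phosphatase, at 7.93 ± 0.586 CPM in siNC and 4.60 ± 1.25 CPM in siEgr2 (SD, n = 6 each; log2 fold change -0.79, edgeR adjusted p = 0.00185). Dusp6, a cytoplasmic ERK phosphatase often read beside Spry4 and Etv5, was at 51.6 ± 4.49 and 50.1 ± 5.37 CPM (log2 fold change -0.04, edgeR adjusted p = 0.776). Of 14 other ERK targets and their repressors, 1 was called, lower, against 7.72% of all genes called. By adjusted p alone 3 were higher and 2 lower, against 8.57% and 11.3% of all genes, and the median was 0.10. Ier3, an immediate early gene, fell from 27.8 ± 2.96 to 16.3 ± 1.87 CPM (log2 fold change -0.77, edgeR adjusted p = 2.48e-05).

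**Figure D4:**
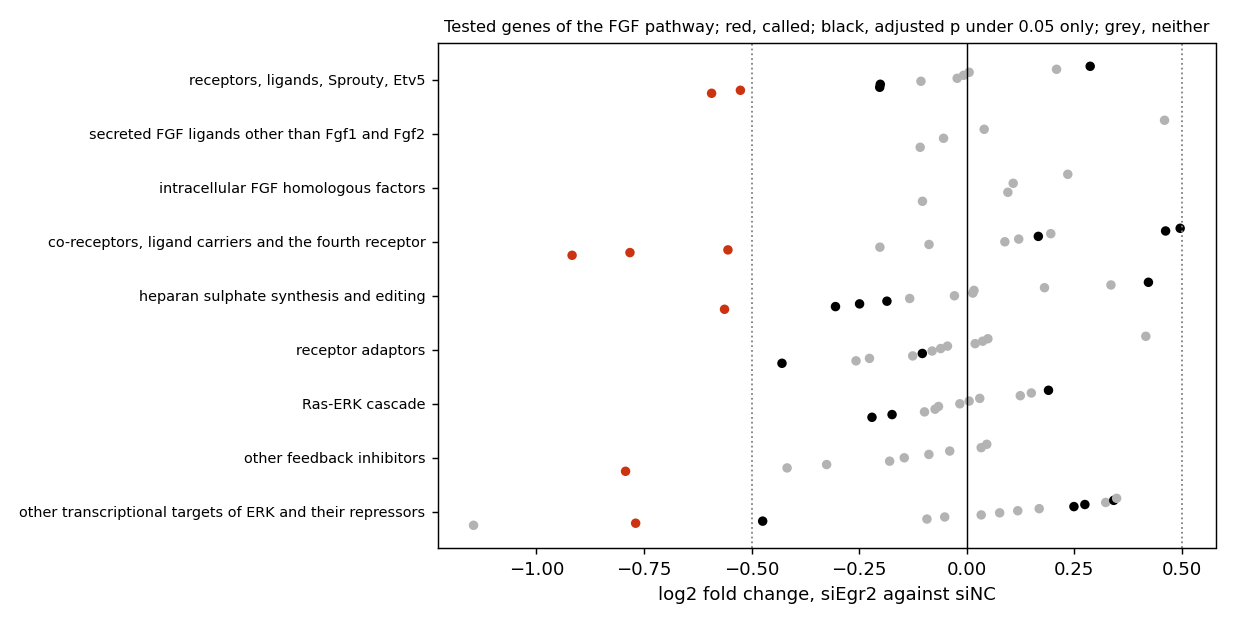
Log2 fold change of siEgr2 against siNC (horizontal axis) for every tested gene of the FGF pathway, 1 point per gene and 1 line per list, red where called, black where only the adjusted p is under 0.05, grey otherwise. The called genes all lie to the left of -0.5, led by Sdc4 at -0.92, and the adaptors and the Ras-ERK cascade hold none.

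Markers of other cells moved between the groups and are given beside these results. Over all genes, 5.08% were called lower and 2.63% higher, and by adjusted p 11.3% were lower and 8.57% higher. All 8 astrocyte markers were tested, 5 were called lower and 7 were lower by adjusted p, with a median log2 fold change of -0.61 and a summed level of 8123 to 8826 CPM in siNC against 5171 to 5873 CPM in siEgr2. The log2 fold change was -0.59 for Fgf1 and -0.53 for Fgfr2. That of Fgfr3, the receptor known mainly from astrocytes, was -0.11 (edgeR adjusted p = 0.663). The part of astrocytes, or of fibroblasts and pericytes, in the values of Fgfr2, Fgfr3, Fgf1, Sdc4, Gpc4, Sdc2 and Sulf1 was not tested. Of 7 fibroblast and pericyte markers, 3 were called lower, with a median log2 fold change of -0.45. Their summed level was 681 to 1108 CPM in siNC and 669 to 801 CPM in siEgr2, led by Col1a1 at 336 ± 59.8 and 301 ± 16.4 CPM.

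All 6 markers of the OL lineage and its precursors were higher by adjusted p, against 8.57% of all genes, and 2 of them were called. Their median log2 fold change was 0.27, with Olig1 leading at 1214 ± 41.2 CPM in siNC and 1454 ± 64.1 CPM in siEgr2 (SD, n = 6 each). Of 5 markers of newly formed OLs, 1 was lower by adjusted p, and Bcas1, with the highest mean CPM, was at 1377 ± 51.2 in siNC and 1743 ± 424 in siEgr2. Of 9 myelin markers, 6 were lower at an unadjusted p under 0.05 and 3 by adjusted p, against 11.3% of all genes by adjusted p. Their median log2 fold change was -0.18. The 7 microglial markers summed to between 1.95 and 5.80 CPM in any library, with Tmem119 the highest on average and Aif1 and Itgam at 0. Of 6 neuronal markers tested, 1 was higher and 1 lower by adjusted p, with Map2 the highest on average at 308 ± 106 and 362 ± 99.1 CPM. Of 3 endothelial markers tested, 1 was called lower, Kdr was the highest, and Cldn5 was at 0 in every library. The lists of newly formed OLs, myelin, microglia and neurons held 0 genes called by edgeR, DESeq2 or limma-voom.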

How the data were processed

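The authors sequenced total RNA of 12 libraries of cultured OLs on the Illumina platform with reads of 50 bp and deposited raw counts per gene symbol without normalization. The submitters' processing notes name the build mm10. The aligner, the counting program and its strand setting are not given in the sources used here. The table held 1 unnamed entry with 0 counts, which was left out.

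From these deposited counts, low genes were removed with filterByExpr, libraries were scaled by TMM, and groups were compared with edgeR 4.0.16 in R 4.3.3 (quasi-likelihood, robust, no covariate), adjusting by Benjamini-Hochberg over 16600 genes. Calls needed an adjusted p under 0.05 with a log2 fold change beyond 0.5 in either direction. Intervals of fold changes are 95% normal intervals from the SE. Ratios used counts plus 0.5 and exact two-sided permutation tests over all 924 assignments, whose smallest p is 0.00216. Alternatives used DESeq2 1.42.0, limma 3.58.1, other scalings, filters and thresholds, thinning, a replicate block and leaving out each library.

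The 10 genes and all lists were chosen with earlier results of these data known. Of each pathway list, up to 5 called genes were named, or the most abundant gene where none was called, with the most abundant gene of each marker list. Some genes that this rule selects are not reported here. Flrt3, Dusp6, and genes listed by adjusted p alone, at 0 or below the filter were chosen after their values were seen, as were the genes overlapping a named gene. Nearest genes needed a mean log2 CPM of at least 4. Within a group, no pair of libraries was a copy: the chi-square per gene was 7.56 to 39.8 over 30 pairs. In a simulation of this comparison with 16309 genes, 168 of 200 genes changed by 1.5 (log2) were recovered and 5 of 173 calls were false. The 10 genes differed by less than this, with Fgf1 the furthest from 0 at -0.59. Recovery of changes of their size was not tested. Coordinates and lengths are from RefSeq GRCm38.p6 and GENCODE M21.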

Additional observations from a re-analysis of the deposited data

Results flagged for a closer look

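Of 42 sets of 6 values examined with Dixon's test (each of the 10 genes, Egr2 and each of the 10 ratios, in each group), 4 held a library apart from the other 5, where chance alone gives about 2.1, or 1 in 20. In siEgr2 replicate 2, Spry1 was at 7.57 CPM and the other 5 libraries at 73.4 to 86.0 CPM. In the same library the log2 ratio of Spry2 to Spry1 was 3.47, with the others between -0.09 and 0.25, and that of Spry4 to Spry1 was 2.99, with the others between -0.43 and -0.12. These 3 share the Spry1 value. In siNC replicate 2 the log2 ratio of Spry2 to Spry1 was 0.23, with the other controls between 0.52 and 0.60. The split of Fgf2 in siNC was not picked out by this test, since no single library stood apart.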

How the results depend on the processing

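Fgf1 was lower under all 25 alternatives, at -0.78 to -0.55, and was called except at a log2 threshold of 1 and by glmTreat, edgeR's test against the threshold. Fgfr2 was lower under all 25, at -0.71 to -0.47, and was not called under those 2, after thinning (-0.47) and without 3 of the libraries named above. Without 1 library, 1114 to 1339 genes were called (386 to 468 higher, 728 to 893 lower) and 1 to 2 of the 10, all lower. Scaling by library size only called 1974 genes, 237 higher and 1737 lower, so that 88.0% of calls were lower against 65.9% with TMM. With no fold threshold 3300 genes passed, 1423 higher and 1877 lower, and 5 of the 10, 1 higher and 4 lower. At a log2 threshold of 1, 373 passed (177 higher, 196 lower), and by glmTreat 237 (83 higher, 154 lower), with 0 of the 10 in both. Thinning called 1 of the 10, lower.

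The sign turned for genes and ratios that had not passed. Fgf2 was at 0.59 with limma-voom, 0.49 with the block and 0.00098 without structural RNAs, and at -0.20 to 0.27 without 1 library. Spry1 was at -0.12 with limma-voom. Spry2 was at -0.18 by library size only, -0.038 with no filter, -0.030 thinned and -0.035 to 0.028 without 1 library, and Etv5 at -0.046 to 0.0044. Without 1 library, Fgfr3 to Fgfr1 ran from -0.015 to 0.17, Fgfrl1 to Fgfr1 from -0.027 to 0.043, Fgfrl1 to Fgfr3 from -0.19 to 0.049, Spry2 to Spry1 from -0.45 to 0.26 and Spry4 to Spry1 from -0.14 to 0.54. The ratios of Spry2 and Spry4 to Spry1 turned only without siEgr2 replicate 2. For Spry1 itself, limma-voom was not run without that library. Causes were not tested otherwise.

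Replicate numbers did not pair the samples. After the group mean of each gene was subtracted from its log2 CPM, same-numbered libraries correlated at -0.04 to 0.04. By the same measure 2 of 6 correlated best with their own number. With a replicate block 1124 genes were called and 2 of the 10. Of the ratios 0 passed, with differences unchanged, but 6 pairs allow no p below 0.0312, which passes the adjustment only if 7 of the 10 reach it, so this says nothing about their stability. Of the 10 ratios, 1 passed after thinning, and 0 to 5 without 1 library. The siEgr2 libraries, with the smaller totals, give the less precise counts.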
